A study of Bos taurus with 4 samples.

Results

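The genes described here are 9 members of the phosphorylation and cyclic AMP machinery that could be followed in bovine blood neutrophils around calving: the kinases GRK2, MAP4K2 and MAP2K7, the phosphatase subunits PPP2CA, PPP2R1A and PPP1R15A, the tyrosine phosphatase PTPN2, the CD45-associated protein PTPRCAP and the adenylyl cyclase ADCY7. They were chosen by their annotated function, with earlier results of these data in view: the fitted difference of ADCY7 between day 0.25 and day -7 was known to pass its threshold. The array carries cDNA spots, and 1 element is a run of 3 consecutive spots. The 9 genes hold 14 of the 1296 elements and 42 of the 3888 spots, and 486 elements carry the name of 1 gene (444 genes in all). PTPRCAP has 6 elements and each of the other 8 genes has 1. All 42 member spots had a value on every array.

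RNA of neutrophils purified from the blood of 4 parturient cows was pooled at each of 4 times, day -7, day 0, day 0.25 and day 1, where calving is day 0. No source used here gives the breed, age, parity or any treatment of the animals. The pools were compared on 4 arrays with 2 channels each. An array is named here by the day in channel 1 and the day in channel 2, as the 0.25/-7, the 1/0, the -7/1 and the 0/0.25 array, and values for the 4 arrays are given in that order. Each pool was on 2 arrays, once in each channel, so the arrays form a closed loop.

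Neutrophils are driven by receptors coupled to G proteins. GRK2 phosphorylates such receptors and switches them off, while adenylyl cyclases such as ADCY7 make cyclic AMP, which restrains adhesion, oxidant release and degranulation. MAP4K2 and MAP2K7 are upstream kinases of the JNK stress cascade. Phosphatase 2A, with PPP2CA as its catalytic subunit and PPP2R1A as its scaffold, opposes many of these kinases. PPP1R15A directs phosphatase 1 to the translation factor eIF2 and so ends a stress response, and PTPN2 dephosphorylates JAK kinases and STAT factors. PTPRCAP binds the leukocyte phosphatase CD45 and has no phosphatase activity of its own. It is known best from lymphocytes.

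Every value below is a log2 ratio of channel 1 to channel 2, after the median element of each array was set to 0, and the value of an element is the mean of its 3 spots. No source used here states which channel is the numerator or that the 4 arrays run the same way, so a sign is the sign of the ratio as taken here and no gene is called higher or lower at any time. The deposited values are ratios between 0.574 and 1.53, and it is not known whether intensities had been transformed before the ratio was formed, so their size is not a fold change of a transcript. There was 1 pool per day. The tests compare these pools, not the days, and no spread between cows can be given. In pooled RNA, fewer cells that express a gene and less of its RNA per cell cannot be told apart. Of 19 neutrophil markers none was among the named elements, so the labelled cell type could not be checked. Of all 61 marker genes of blood cells 1 was, the B cell receptor subunit CD79B, at -0.0037, -0.0051, 0.022 and 0.012 on the 4 arrays. Its part in the results was not tested.

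The arrays differed in spread. Over all elements the SD was 0.046, 0.018, 0.032 and 0.015. Within an element the spots had a median SD of 0.024, 0.012, 0.0087 and 0.0089, and over the 14 member elements it was 0.036, 0.0066, 0.0077 and 0.0058. For all named elements it was 0.025, 0.0089, 0.0072 and 0.0068. The spots of named elements as a whole, members included, thus lay closer together than those of all elements on the last 3 arrays, and on the -7/1 array the members' spots were not closer than those of named elements.

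**Figure D1:**
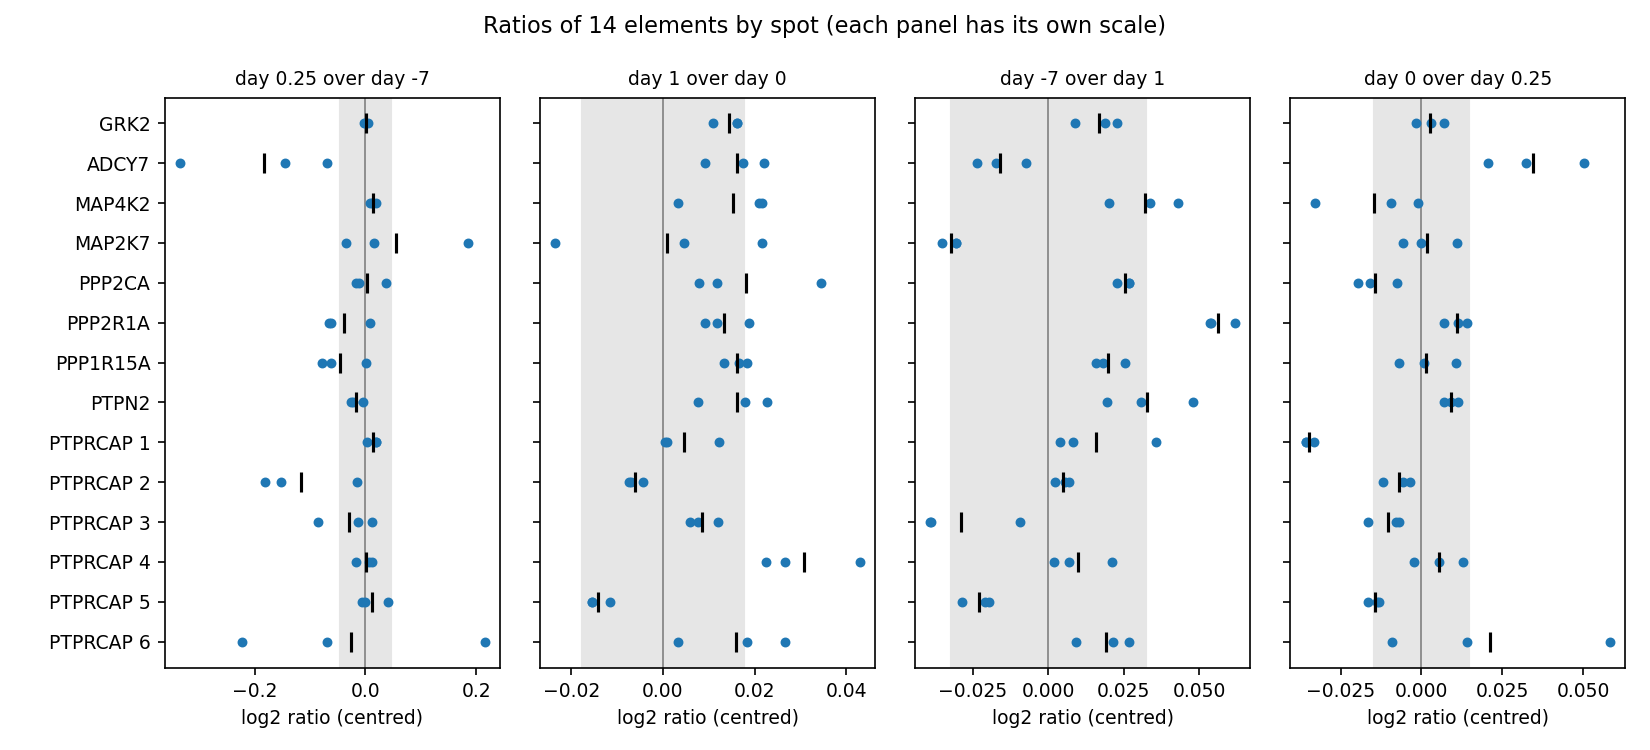
Log2 ratio of every spot (dots) and the mean of its element (bars) for the 14 elements, with 1 panel for each array, titled by its days in channel 1 and channel 2, and a scale of its own in each. The grey band is 1 SD over all elements to each side of 0. ADCY7 lies far to the left on the 0.25/-7 array, at a mean of -0.18, and the PTPRCAP elements (numbered in list order) fall on both sides of 0.

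ADCY7 had the mean farthest from 0 of the member elements on the 0.25/-7 array. On each other array another member element lay farther out. On the 0.25/-7 array the ADCY7 spots read -0.33, -0.070 and -0.14, a mean of -0.18 (a ratio of 0.881), with 0.386% of elements lower. On the 1/0 array they read 0.017, 0.0093 and 0.022, on the -7/1 array -0.024, -0.0074 and -0.017, and on the 0/0.25 array 0.050, 0.021 and 0.032. All 3 spots had the same sign on each of the 4 arrays. The means on the last 3 arrays were 0.016, -0.016 and 0.034, the last of them above 97.8% of elements.

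The strongest ADCY7 value rested in part on 1 spot. Without the spot at -0.33 the mean of the other 2 on that array was -0.11, and without the spot at -0.070 it was -0.24. The SD between the 3 spots was 0.14 there, against 0.0065 to 0.015 on the other arrays. In the fit of the loop, which estimates all differences between pools from the 4 arrays together, ADCY7 stood at -0.15 ± 0.029 (SE) for day 0.25 minus day -7, -0.074 ± 0.033 for day 0 minus day -7 and -0.021 ± 0.029 for day 1 minus day -7. The first of these passed the threshold, and ADCY7 was taken into the set with that known, so it is a description here. It no longer passed when the arrays were not centred, which left the value at -0.14, with arrays weighted by inverse variance, at -0.098, with a running median over neighbouring elements subtracted, at -0.13, or with the sign of any array but the 1/0 array turned. Without the 0.25/-7 array it was -0.034. Day 0 minus day -7 was -8.2e-05 without the 0.25/-7 or the 0/0.25 array and -0.15 without either of the others, and day 1 minus day -7 was -0.13 without the -7/1 array and 0.016 without any other. Day 1 minus day 0.25 gave 0.12 ± 0.033, with no call (limma adjusted p = 0.961).

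Around the loop the 4 log ratios of an element should sum to 0 apart from channel bias and noise if all arrays run the same way. For ADCY7 they summed to -0.15, a size above that of 97.6% of elements (SD over all elements 0.061). The 0.25/-7 array gave -0.18 directly, while the other 3 arrays gave -0.034 for the same pair of pools. The sign was the same by both routes and the size was not. The -7/1 array gave -0.016 directly and 0.13 through the other 3 arrays, so here the sign differed too. On every array the direct minus the indirect value is the sum around the loop, so these are 1 comparison. It cannot show which array departs. The largest ADCY7 value was the reading of 1 array.

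GRK2, the receptor kinase, was the flattest member. Its spots read -0.0017, 0.0046 and -0.0016 on the 0.25/-7 array, and its means on the 4 arrays were 0.00044, 0.014, 0.017 and 0.0028. On the 2 middle arrays all 3 spots were positive. Its fitted differences against day -7 were -0.014 ± 0.026 at day 0, -0.0082 ± 0.022 at day 0.25 and -0.0082 ± 0.022 at day 1, each smaller than its SE. All 3 turned with 1 array left out: day 0 was 0.0032 without the 1/0 or the -7/1 array and -0.031 without either of the others, day 0.25 was -0.034 without the 0.25/-7 array and 0.00044 without any other, and day 1 was 0.018 without the -7/1 array. The root mean square of its 4 ratios, 0.011, exceeded that of 14.1% of elements only, against 99.1% for ADCY7 (0.094). The ADCY7 figure includes its mean of -0.18 on the 0.25/-7 array.

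The JNK cascade was represented at 2 levels. MAP4K2, the upper kinase, had means of 0.013, 0.015, 0.032 and -0.015, and its 3 spots had one sign on all 4 arrays. Its mean was farthest from 0 on the -7/1 array, with spots at 0.034, 0.043 and 0.020. MAP2K7, which activates JNK directly, had the opposite sign on that array, with 3 tight spots at -0.031, -0.031 and -0.035 (mean -0.032, with 8.80% of elements lower).

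On the 0.25/-7 array the MAP2K7 spots disagreed, at 0.015, -0.035 and 0.19. Their mean of 0.055 became -0.010 without the spot at 0.19. The fitted MAP2K7 differences against day -7 were 0.044 ± 0.026 at day 0, 0.049 ± 0.022 at day 0.25 (limma adjusted p = 0.409) and 0.039 ± 0.022 at day 1. It was the only gene of the 8 with 1 element whose 3 differences were all positive, and with any 1 array left out they stayed between 0.030 and 0.058. Taking the middle spot instead of the mean gave 0.017 at day 0.25.

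Both phosphatase 2A subunits had all 3 spots positive on the -7/1 array, as had 10 of the 14 member elements and 49.4% of named elements. The scaffold PPP2R1A had spots at 0.054, 0.062 and 0.054 there, a mean of 0.056 (a ratio of 1.04) above 95.9% of elements and the highest of the 14. The catalytic subunit PPP2CA had 0.023, 0.027 and 0.027. On the 0/0.25 array they lay apart, with PPP2R1A at 0.0070, 0.014 and 0.011 and PPP2CA at -0.0076, -0.016 and -0.020, so the spots of the genes did not overlap and had opposite signs.

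On the 0.25/-7 array PPP2R1A read 0.0085, -0.065 and -0.061, and PPP2CA -0.011, -0.017 and 0.038. In both genes 1 of the 3 spots had the other sign. The fitted PPP2R1A differences against day -7 were close to one another, -0.049 ± 0.026 at day 0, -0.050 ± 0.023 at day 0.25 and -0.046 ± 0.023 at day 1, with limma adjusted p of 0.91, 0.409 and 0.884. Those of PPP2CA were -0.027 ± 0.026, -0.0049 ± 0.022 and -0.017 ± 0.022. The 3 differences share the pool of day -7. With 1 array left out PPP2R1A stayed negative, from -0.028 to -0.070 at day 0, from -0.039 to -0.081 (without the 0.25/-7 array) at day 0.25, and at -0.015 without the -7/1 array at day 1. PPP2CA ranged from -0.011 to -0.043 at day 0. It changed sign at day 0.25, with -0.029 without the 0.25/-7 array and 0.0032 without any other, and at day 1, with 0.0069 without the -7/1 array and -0.025 without any other.

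PPP1R15A, the eIF2 phosphatase regulator, was the gene whose loop closed best among the 8 with 1 element, with a sum of -0.0092. Its direct and indirect values had the same sign on every array, for example -0.047 and -0.037 on the 0.25/-7 array and 0.020 and 0.029 on the -7/1 array. The spots on the 0.25/-7 array were -0.078, -0.062 and 0.00030. Those on the 1/0 array were 0.018, 0.017 and 0.013. The fit gave -0.040 ± 0.025 at day 0, -0.044 ± 0.022 at day 0.25 (limma adjusted p = 0.479) and -0.022 ± 0.022 at day 1 against day -7. With any 1 array left out these stayed negative, between -0.020 and -0.047.

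PTPN2, the phosphatase of JAK and STAT proteins, had all 3 spots of one sign on each array. Its means were -0.018, 0.016, 0.033 and 0.0092, and its spots on the -7/1 array were 0.019, 0.048 and 0.031. The fitted differences of PTPN2 against day -7 were -0.029 ± 0.026, -0.028 ± 0.023 and -0.023 ± 0.023 at day 0, day 0.25 and day 1. With 1 array left out PTPN2 was -0.0085 (without the 1/0 or the -7/1 array) or -0.049 at day 0, -0.058 without the 0.25/-7 array or -0.018 without any other at day 0.25, and 0.0077 without the -7/1 array or -0.033 without any other at day 1. Its sum around the loop was 0.040, so the positive values on the last 3 arrays were not offset by the first.

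**Figure D2:**
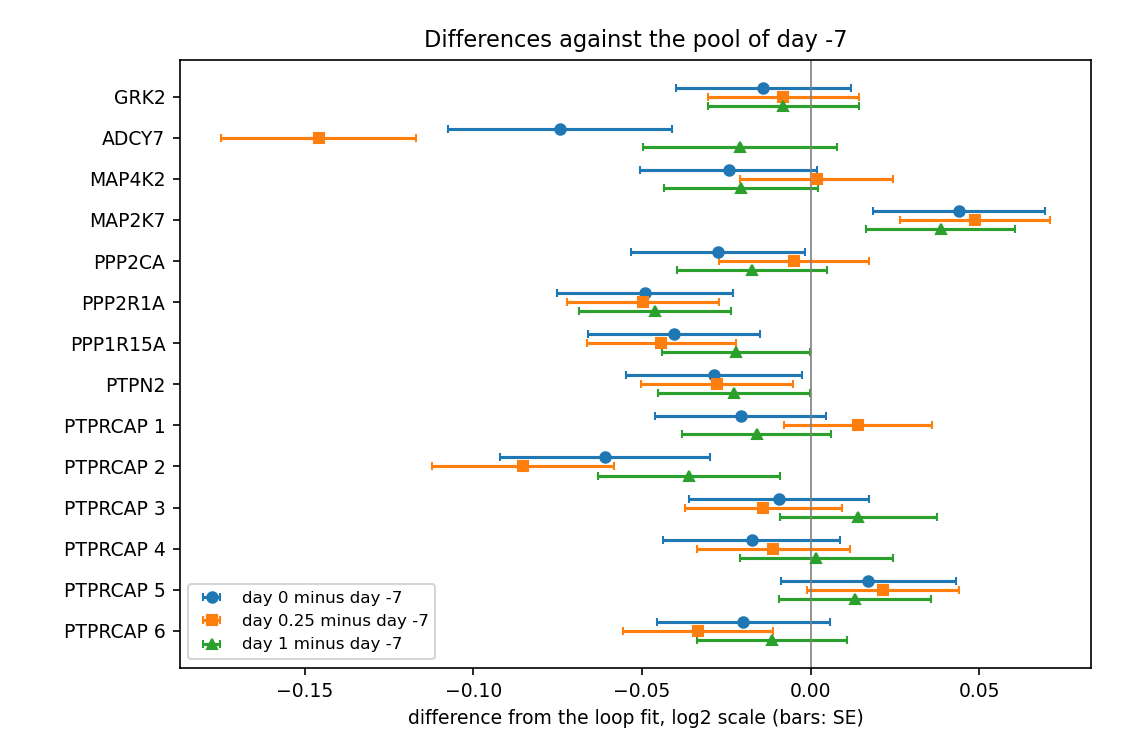
Fitted difference of each of the 14 elements against the pool of day -7 on the log2 scale, with day 0 as circles, day 0.25 as squares and day 1 as triangles, and bars of 1 SE. ADCY7 at day 0.25 (-0.15) lies farthest from 0, and MAP2K7 is the gene with all 3 values on the positive side among those with 1 element.

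PTPRCAP was measured by 6 elements, which allowed a check of how well elements with the same gene name agree. On the 0.25/-7 array their means in list order were 0.014, -0.12, -0.029, 0.00063, 0.011 and -0.026. On the 1/0 array they were 0.0045, -0.0062, 0.0085, 0.031, -0.014 and 0.016. On the -7/1 array they were 0.016, 0.0048, -0.029, 0.010, -0.023 and 0.019, and on the 0/0.25 array -0.035, -0.0070, -0.010, 0.0053, -0.014 and 0.021. Positive elements numbered 3, 4, 4 and 2 of 6 on the 4 arrays, so no array gave the gene a single sign.

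The SD between the 6 PTPRCAP elements was 0.049, 0.016, 0.021 and 0.019 on the 4 arrays. Over all elements the SD was 0.046, 0.018, 0.032 and 0.015, so the PTPRCAP elements lay closer together than that on the -7/1 array and about as far apart or farther on the others. As a distance over the 4 arrays (the square root of the summed squared differences), the 15 pairs of PTPRCAP elements had a median of 0.067, from 0.035 to 0.13, and all pairs of elements on the array a median of 0.063. For the other 31 genes with more than 1 element the pooled SD within a gene was 0.059, 0.021, 0.019 and 0.013. Over the 4 arrays together, elements of PTPRCAP thus had a median distance no smaller than that of elements taken without regard to name. That median includes the pairs with the second element, which were the widest, from 0.095 to 0.13. Pairs without it ran from 0.035 to 0.073, and their median was not worked out. Within a PTPRCAP element the spots had a median SD of 0.0049, 0.0095 and 0.0048 on the last 3 arrays. Over all elements it was 0.012, 0.0087 and 0.0089, so on the -7/1 array the PTPRCAP spots were not closer together.

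Single PTPRCAP elements show the range. The second element had -0.15, -0.18 and -0.015 on the 0.25/-7 array and stayed within 0.012 of 0 at every spot of the other 3 arrays. Its difference for day 0.25 minus day -7 was -0.085 ± 0.027 (limma adjusted p = 0.135), and 0.0084 from the other 3 arrays. The first element closed the loop to -0.00073, with spots of -0.036, -0.033 and -0.036 on the 0/0.25 array, where only 0.849% of elements were lower. The sixth had spots at 0.22, -0.070 and -0.22 on the 0.25/-7 array, an SD of 0.22 around a mean of -0.026.

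As a mean over the 6 elements PTPRCAP stood at -0.019 ± 0.025 (SD between elements, n = 6) for day 0, -0.018 ± 0.039 for day 0.25 and -0.0058 ± 0.019 for day 1, each against day -7. The spread between elements was larger than the mean in all 3. With 1 array left out the PTPRCAP mean was -0.0061 or -0.031 at day 0, 0.00058 without the 0.25/-7 array and -0.024 without any other at day 0.25, and -0.024 without the -7/1 array and 0.00043 without any other at day 1. The platform annotation assigns these elements to 1 gene through 6 different sequence records, and whether each is correctly named was not tested.

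**Figure D3:**
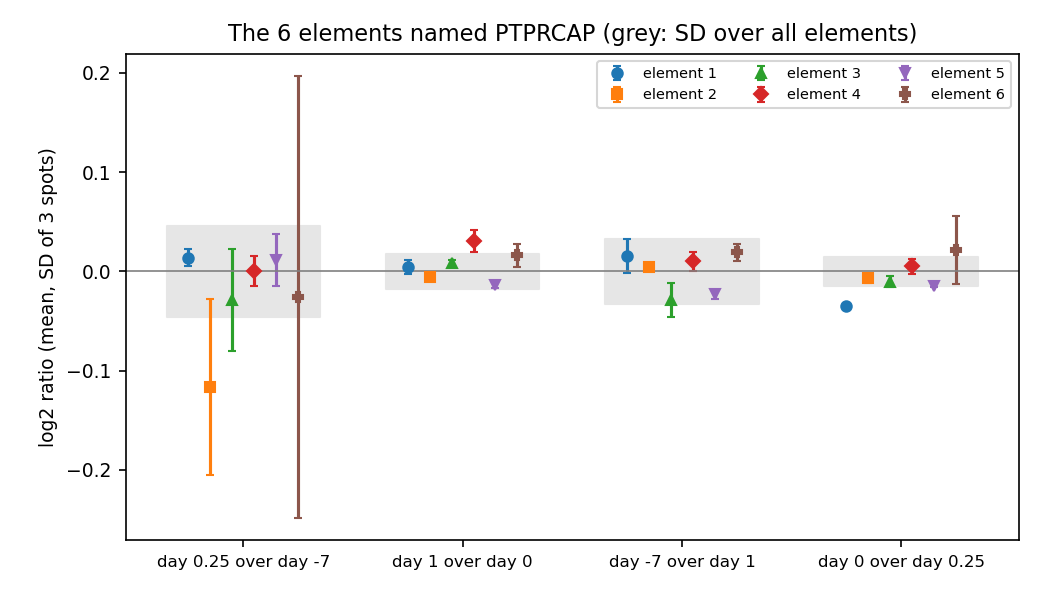
Mean log2 ratio of the 6 elements named PTPRCAP on each array, with the SD of the 3 spots as bars and 1 SD over all elements as grey boxes. The elements scatter over a range like that of the grey boxes, and on the 0.25/-7 array the second lies at -0.12 and the sixth has an SD of 0.22.

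Over the 14 elements the differences of the loop fit were mostly not beyond their error. For day 0.25 minus day -7, 1 member element passed a Benjamini-Hochberg adjusted p below 0.05, ADCY7, and 2.01% of all 1295 elements tested did. At an unadjusted p below 0.05 there were 4 members (ADCY7, the second PTPRCAP element, PPP2R1A and MAP2K7), against 12.1% of all elements. No member passed for day 0 or day 1 against day -7, where 0.309% of all elements did, with 1 member (ADCY7) and 0 members at an unadjusted p below 0.05 (6.02% and 5.64% of all elements).

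Between the later pools 0 elements passed in limma, members included. At an unadjusted p below 0.05 there was 1 member, ADCY7, for day 0.25 minus day 0 (0.309% of all elements) and for day 1 minus day 0.25 (3.24%), and 0 for day 1 minus day 0 (0.463%). The F test over all 3 differences passed for 0 members and 0.541% of all elements, with 1 member, ADCY7, at an unadjusted p below 0.05 (7.18% of all elements). In sign, 12 of 14 members were negative for day 0 minus day -7 (median -0.023), 10 for day 0.25 (median -0.013) and 10 for day 1 (median -0.017), where 53.2%, 50.6% and 52.9% of all elements were negative. These comparisons share the pool of day -7, and PTPRCAP gives 6 of the 14. All members are named elements, of which 61.5% had a positive mean on the -7/1 array. That array enters all 3 differences with a minus sign. The 0.25/-7 array (48.6%) enters with a plus sign, and the 1/0 (62.3%) and 0/0.25 (65.8%) arrays with signs that vary. The share of named elements with a negative difference was not worked out. With 1 array left out 11 or 12 of the 14 signs were kept at day 0 and 11 at day 0.25. At day 1 it was 7 without the -7/1 array and 12 without any other.

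In a test within a single array, where the error is the spread between the 3 spots of an element, the -7/1 array called 7 member elements of 14 at an adjusted p below 0.05. PPP2R1A, PPP2CA, PTPN2, MAP4K2 and PPP1R15A were positive, and MAP2K7 and the fifth PTPRCAP element were negative. The limma adjusted p ran from 0.0124 for PPP2R1A to 0.0358 for PTPN2. On this array 42.2% of all elements were called, against 50% of the members. With the running median over 27 elements subtracted first, the array called 6 of 14 members and 317 of 1296 elements in place of 547. All members are named elements, whose spots had one sign more often on this array (77.0%, against 65.1% of the others). The share of named elements called was not worked out, so no excess of the members is read from these counts. On the other arrays 0 members were called, and 0%, 0.0772% and 0% of all elements. At an unadjusted p below 0.05 there were 2 members on the 0.25/-7 array (19.6% of all elements), 7 on the 1/0 array (19.6%), 11 on the -7/1 array (52.7%) and 5 on the 0/0.25 array (23.3%).

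The members' spots agreed in sign more often than the array as a whole on 3 of the 4 arrays, which was not tested. On the 1/0 array all 3 spots had one sign at 13 of 14 elements (46.5% of all elements), 11 of them positive (22.5%) and 2 negative (24%), with MAP2K7 as the exception. On the -7/1 array it was 14 of 14 (69.5%), 10 of them positive (34.3%) and 4 negative (35.2%). On the 0/0.25 array it was 9 of 14 (49.1%), 3 positive (24.5%) and 6 negative (24.5%). On the 0.25/-7 array it was 5 of 14 (48.9%), 2 positive (26.3%) and 3 negative (22.6%). Among all named elements the shares of one sign were 49.9%, 51.2%, 77.0% and 51.6% on the 4 arrays. All members are named elements and PTPRCAP gives 6 of the 14, so no excess of the members is read from these counts. All 3 spots were positive at 25.4%, 34.2%, 49.4% and 34.8% of named elements on the 4 arrays. The direct ratio was also set beside that from the other 3 arrays, for all 14 members whether or not their spots agreed. The direct ratio had the sign that the other 3 arrays gave for 4 of 14 members on the 1/0 array, 5 on the -7/1 array, 5 on the 0/0.25 array and 8 on the 0.25/-7 array, where 43.2%, 43.9%, 41.0% and 53.1% of all elements did. The counts lie near these shares, so nothing particular to the members is read from them. Direct minus indirect is the same sum around the loop on every array, so they are not 4 separate checks.

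**Figure D4:**
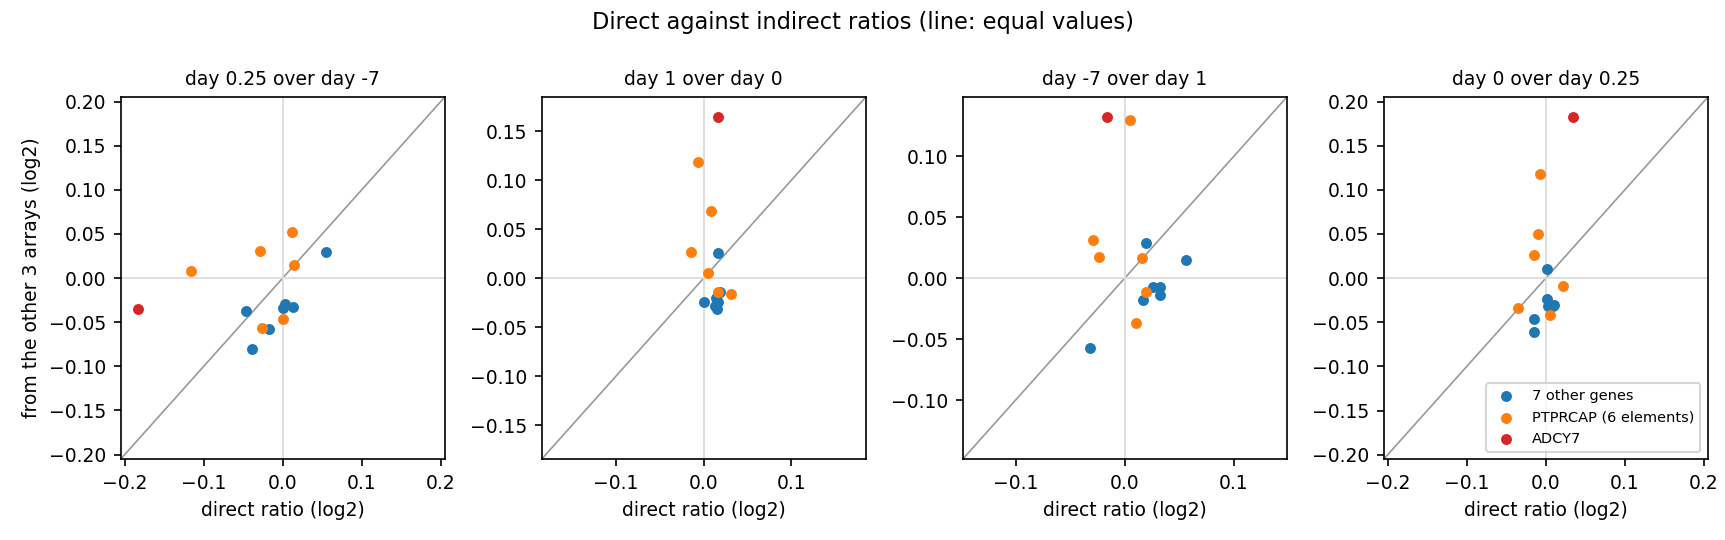
Log2 ratio read directly from each array (x axis) against the ratio of the same pools computed from the other 3 arrays (y axis) for the 14 elements, with a line of equal values. On the 1/0 array the direct values lie between -0.014 and 0.031, and the indirect value of ADCY7 reaches 0.16.

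Ratios also varied with the position of an element in the list. The running median over 27 neighbouring elements at GRK2 was 0.016 on the -7/1 array, so its 0.017 there left 0.00047. For PPP2CA the local median was -0.017, and 0.025 became 0.043. PPP2R1A kept 0.043, MAP2K7 -0.039 and PTPN2 0.025 after subtraction, while ADCY7 stood at -0.18 on the 0.25/-7 array. In the loop fit after this subtraction ADCY7 was -0.13 for day 0.25 minus day -7 and no longer passed.

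Of 259 genes in 6 lists of related pathways 18 were on the array by name, the 9 members and 9 others with 1 element each. GNAI3, a G protein subunit that inhibits adenylyl cyclase, had fitted differences against day -7 of -0.045, -0.035 and -0.030 at day 0, day 0.25 and day 1. JUN, the transcription factor at the end of the JNK cascade, had -0.018, -0.031 and 0.0045. EIF2AK4, a kinase of eIF2, stood at -0.0021, -0.0016 and -0.017. The pseudokinase PTK7 had the largest values of the 9, -0.077, -0.085 and -0.051. LCMT1, which methylates the catalytic subunit of phosphatase 2A, PPP6C, the related catalytic subunit of phosphatase 6, the receptor phosphatase PTPRF, the transcription factor STAT6 and the interleukin-1 receptor kinase IRAK4 lay between -0.027 and 0.019 in these comparisons. None of the 9 passed over all elements in any of the 6 comparisons, with PTK7 at day 0.25 the nearest (limma adjusted p = 0.0758). At an unadjusted p below 0.05 there was 1, PTK7, against day -7 at each of the 3 later times, and 0 between the later pools. Their medians were -0.012, -0.011 and -0.0013, and those of all elements -0.0026, -0.00064 and -0.0012.

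The named genes most like each member over the 4 arrays were found by the same distance. Nearest to ADCY7 were PHF20, a chromatin reader (0.048), NOSIP, which binds nitric oxide synthase (0.058), and NARF, a binder of prelamin A (0.058), against a median distance of 0.19 to all named elements. On the 0.25/-7 array they stood at -0.15, -0.14 and -0.17, and on the 0/0.25 array at 0.0084, 0.0058 and 0.0098, where ADCY7 had 0.034. An element of the ribosomal gene RPL13A was nearest to PPP2CA (0.0093) and MAP4K2 (0.017), and a different RPL13A element to PPP2R1A (0.014). Another ribosomal gene, RPLP1, was nearest to PTPN2 (0.0052). The share of ribosomal genes among the named elements was not worked out, so no link to them is read. The ion channel relative TMC8 was nearest to GRK2 (0.0080), the pseudokinase SCYL3 to PPP1R15A (0.011) and the translocon protein TRAM1 to MAP2K7 (0.021). No PTPRCAP element had another PTPRCAP element nearer than the 0.035 between the fourth and the sixth. The nearest other named genes lay at 0.0067 (CSRP1) and 0.013 (TMED7) from these 2. They were picked from many more elements, which alone makes the smallest distance smaller, so the contrast says nothing about agreement between PTPRCAP elements.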

How the data were processed

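Neutrophil RNA pools of 4 cows at 4 times were compared on 4 two-channel cDNA arrays. The deposited values are log10 ratios, 1 per spot and array: raised to base 10, 100% fall on multiples of 0.0001 (tolerance 2.5% of the last decimal), against 5.17% to 5.66% if read as log2. Background correction, normalisation, filters, dyes and numerator: not given in the sources used here. Without intensities the depth of a spot is unknown, and precision is limited by there being 4 arrays. Ratios were taken as channel 1 over channel 2 and converted to log2, 3 spots were averaged per element, and the median element was set to 0 on each array. Names came from the platform annotation, updated by gene ID (485 of 486 elements matched; ARS-UCD2.0, names only). Values missing on the 0.25/-7 array (20 spots) left 1295 elements for the loop fit.

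The loop was fitted with limma 3.58.1 (R 4.3.3), with 1 residual degree of freedom per element and 10.9 from moderation, and p-values were adjusted by Benjamini-Hochberg over all elements. Each array was also tested over its spots. Both were tested on simulated data. Plots used matplotlib 3.10.9. All 9 members are named. Other genes are named from the 6 pathway and 6 marker lists, or as the nearest by distance (3 for ADCY7, 1 otherwise). Members and lists were chosen with earlier results of these data known. No sequence of an element was used here.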

Additional observations from a re-analysis of the deposited data

How the results depend on the processing

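Every ratio already pairs the pools on 1 array, and the loop fit uses this pairing. No analysis paired by cow was possible, because the RNA was pooled and each comparison is 1 array. Groups share fewer than 2 replicate numbers, since each array has the number 1. For day 0.25 minus day -7 the 1 member past the threshold became 0 without centring, with arrays weighted by inverse variance, after the running median over 27 elements was subtracted, and with the sign turned on the 0.25/-7 array, the -7/1 array or the 0/0.25 array. It became 2 with the sign of the 1/0 array turned (the second PTPRCAP element was added) and 5 with spots as repeats, where the error is that between spots. It stayed 1 with the median of the spots and with arrays scaled to equal spread. ADCY7 stood at 0.13 for this difference with the sign of the 0.25/-7 array turned, and at -0.034 without that array. Under the other 9 settings with a test it stayed between -0.15 and -0.098, and leaving out any of the other 3 arrays gave -0.18. Arrays left out leave no residual degree of freedom and therefore no test. A difference then has 1 route only, so this -0.18 is the direct ratio of the 0.25/-7 array each time. It is 1 reading and not 3 checks, and left-out values of the other members repeat for the same reason. For day 1 minus day -7 spots as repeats gave 1 member in place of 0. For the F test the count of 0 became 1 with the sign of the 1/0 array turned and 2 with spots as repeats. With the farthest spot of each element left out, which shrinks the error, the tests over spots called 3 members on the 0.25/-7 array, 8 on the 1/0 array, 11 on the -7/1 array and 5 on the 0/0.25 array, while they called 249, 355, 872 and 414 of all elements. With the running median subtracted the -7/1 array called 6 members and 317 of all elements, in place of 7 and 547. Over all elements the count for day 0.25 minus day -7 was 26, and it was 7 with arrays scaled, 84 with the sign of the 1/0 array turned, 263 with spots as repeats and 0 in each setting that left no member. For day 0 and day 1 against day -7 the counts of 4 became 63 and 76 with spots as repeats, 8 and 31 with the sign of the 1/0 array turned, and 0 without centring, with the running median subtracted or with the sign of another array turned. For the F test 7 became 112, 46 and 0 in the same order, and 3 with arrays weighted. The cause of the other changes was not tested. Of the 14 signs against day -7, 12 to 14 were kept without centring, scaled, weighted or detrended. With the sign of the 0.25/-7 array turned, 5 were kept for day 0.25, and with that of the -7/1 array turned 3 were kept for day 1.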

Other observations

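The 3 spots of named elements had one sign more often than those of the other elements, by little on one array. All 3 spots had one sign at 77.0% of named elements and 65.1% of the others on the -7/1 array, at 51.2% and 43.7% on the 1/0 array, at 51.6% and 47.5% on the 0/0.25 array and at 49.9% and 48.3% on the 0.25/-7 array. Positive means made up 62.3%, 61.5% and 65.8% of the named elements on the 1/0, -7/1 and 0/0.25 arrays, against 48.6% on the 0.25/-7 array, while centring sets the share of all elements to an even split. The positive signs of GRK2, PPP2R1A, PPP1R15A, PTPN2 and the fourth and sixth PTPRCAP elements on all of these last 3 arrays stand beside that share. Neither difference was tested.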
